A study of Mus musculus with 6 samples.

Results

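The genes described are 3 Notch receptors (*Notch1*, *Notch2* and *Notch3*), 3 Notch ligands (*Dll1*, *Dll3* and *Jag1*) and 4 transcription factors of the HES and HEY families (*Hes1*, *Hes6*, *Hey1* and *Hey2*). They were picked by name. Each is represented by a single row of the value table that carries its symbol alone, so 10 genes were followed among 19938 genes measured under a single symbol. They were measured in N2A cells, a mouse neuroblastoma line, on 6 Affymetrix Mouse Gene 1.0 ST arrays. The control group (n = 3) received a non-targeting vector, and the knockdown group (n = 3) received a construct that expresses a short hairpin RNA against the long noncoding RNA *Paupar*. Cells of both groups grew in medium with 10% serum and were transfected transiently with 1.5 µg of construct. RNA was taken days later, and the study's methods give a range for that time, with 2.5 days as its middle. The hairpin vectors also carry a green fluorescent protein gene. The study followed *Paupar* itself by quantitative RT-PCR. No row of the array table is named *Paupar*, so its level on these arrays was not checked here. No sorting for transfected cells is described for these samples, so each value is an average over a culture. In such bulk RNA, fewer cells of a type and less RNA per cell cannot be told apart. The study calls the arrays of a group biological replicates.

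Notch signalling passes between touching cells. Delta and Jagged ligands on a cell bind Notch receptors on its neighbour, ADAM proteases and the gamma-secretase complex then cut the receptor, and the freed intracellular part joins the DNA-binding protein RBPJ in the nucleus to switch on *Hes* and *Hey* genes. HES and HEY proteins are repressors that hold back neuronal differentiation genes in the developing nervous system, where Notch keeps progenitors from differentiating. *Hes6* is the exception in that family, since it opposes HES1 and favours neuronal differentiation.

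*Hey2* was the single gene of the 10 that passed the test, and it fell in the knockdown. The windows around the start sites of these genes (250 bases before to 50 bases after, RefSeq, GRCm38.p6) were searched on both strands for the RBPJ site GTGGGAA, the E-box CACGTG and the N-box CACNAG, no one of which can match the same letters as another in full. A window was given for 8 of the 10 genes, with 10 windows in all, and *Hes1* and *Hey1* had none. The *Hey2* window is shown because it belongs to the gene that changed and because it was the only 1 of the 10 windows with the RBPJ letters. They occur in it on opposite strands, and the capitals mark them. The window lies at chr10:30842734-30843033 on the minus strand and reads, 5′ to 3′:

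*Hey2* window: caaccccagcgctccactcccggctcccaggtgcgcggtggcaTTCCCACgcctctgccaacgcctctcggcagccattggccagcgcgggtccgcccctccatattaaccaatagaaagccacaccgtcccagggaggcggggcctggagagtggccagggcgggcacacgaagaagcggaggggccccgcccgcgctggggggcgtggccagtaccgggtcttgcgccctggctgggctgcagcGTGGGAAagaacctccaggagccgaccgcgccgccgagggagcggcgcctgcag

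The match on the opposite strand begins at position -207 from the start site and the match on the gene's own strand at position -4. Of 32851 windows of this length in the RefSeq table, 6.38% hold the RBPJ letters at least once and 0.256% hold them at least 2 times, a count that was made after the *Hey2* matches had been seen. The E-box was in 0 of the 10 windows (7.15% of all windows) and the N-box in 5 of them (42.5% of all windows). These are matches of letters. No binding was measured on these arrays.

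*Hey2* encodes a repressor with a basic helix-loop-helix domain. Its deposited log2 value was 8.70, 8.66 and 9.02 on control arrays 1 to 3, and 7.95, 7.96 and 8.64 on knockdown arrays 1 to 3. Every knockdown value lay below every control value, but knockdown array 3 lay just under the lowest control array, while the other 2 knockdown arrays lay far below it. The mean went from 8.79 ± 0.20 to 8.18 ± 0.40 (SD, n = 3 in each group), which is lower by a factor of 1.53. On the log2 scale the difference was -0.61 (SE 0.17, 95% interval from -0.98 to -0.24), with an adjusted p = 0.0477 (limma, two-sided, Benjamini-Hochberg over 9969 genes that passed a filter on variation), just inside the threshold of 0.05. Of those 9969 genes, 7.54% passed the same test, 5.16% with a fall and 2.39% with a rise. An exact permutation test of *Hey2* alone gave p = 0.1, the smallest that 3 arrays against 3 allow.

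The call of *Hey2* depended on single arrays and on the filter. Among the controls, it was lost when array 1 (limma adjusted p = 0.106) or array 3 (adjusted p = 0.209) was left out, and among the knockdown arrays when array 1 (adjusted p = 0.332) or array 2 (adjusted p = 0.376) was. It held when control array 2 or knockdown array 3 was left out. With no filter on variation its adjusted p was 0.108 in the fit to all 19938 genes. The direction was the same in all 15 alternative settings.

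**Figure D1:**
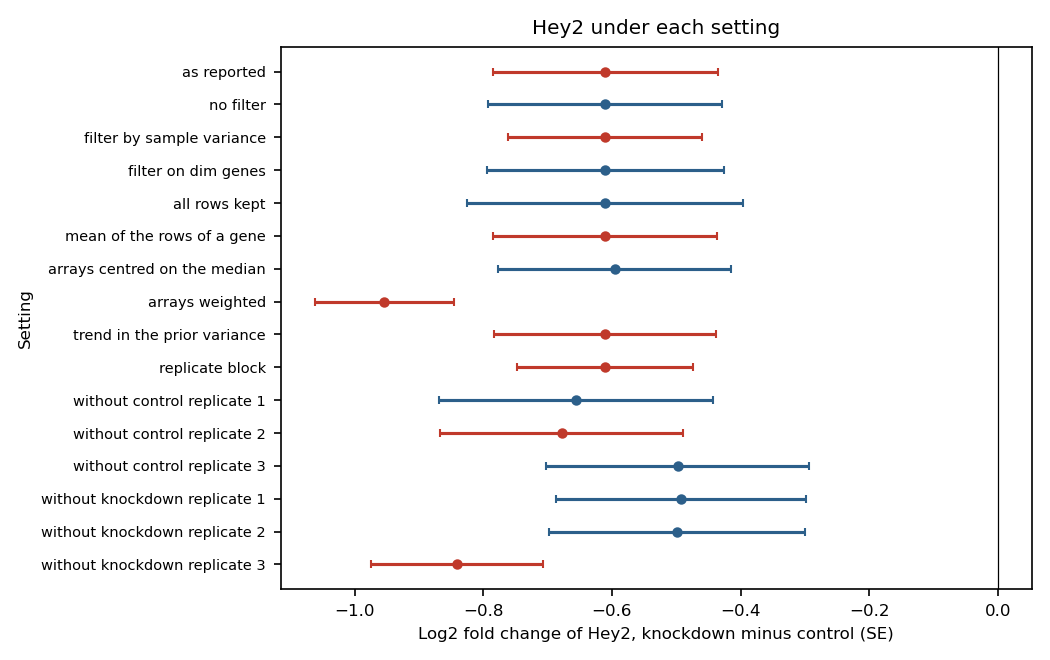
Log2 fold change of *Hey2* (x axis, knockdown minus control) under each setting (y axis), with bars of 1 standard error. Red marks settings with an adjusted p under 0.05 and blue the others. The estimate lies between -0.95 and -0.49 in the 15 alternatives, and 7 of them are red.

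*Hey1*, the closest relative of *Hey2* and likewise a repressor, was 9.28, 9.10 and 9.42 in the controls and 8.75, 8.85 and 9.31 in the knockdown. Knockdown arrays 1 and 2 lay below all controls, and knockdown array 3 lay among them. The difference of -0.29 (SE 0.15, 95% interval from -0.62 to 0.03, limma adjusted p = 0.226) did not pass. Without knockdown replicate 3 *Hey1* passed, with a log2 difference of -0.46 (limma adjusted p = 0.0414). In that setting 12.4% of all genes past the filter passed, against 7.54% with all arrays. A call for *Hey2* and none for *Hey1* does not by itself show that they responded differently. The change of *Hey2* exceeded that of *Hey1* by -0.32 on the log2 scale, in the same direction in each knockdown array compared with each control array (exact permutation p = 0.1, the smallest possible). The pair was compared with both results known, and so few arrays allow no smaller p. Whether the responses differ is therefore not settled.

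Neither HES gene passed. *Hes1*, the classical Notch target of neural progenitors, was 6.98, 6.68 and 6.83 in the controls and 6.98, 7.07 and 6.76 in the knockdown. Its groups overlapped, and the log2 difference was 0.11 (95% interval from -0.17 to 0.38, limma adjusted p = 0.633). *Hes6* was 9.10, 9.19 and 9.29 in the controls and 9.05, 8.90 and 9.12 in the knockdown. As for *Hey1*, knockdown arrays 1 and 2 lay below all controls for *Hes6* and knockdown array 3 did not. Its log2 difference was -0.17 (95% interval from -0.38 to 0.04, limma adjusted p = 0.374).

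**Figure D2:**
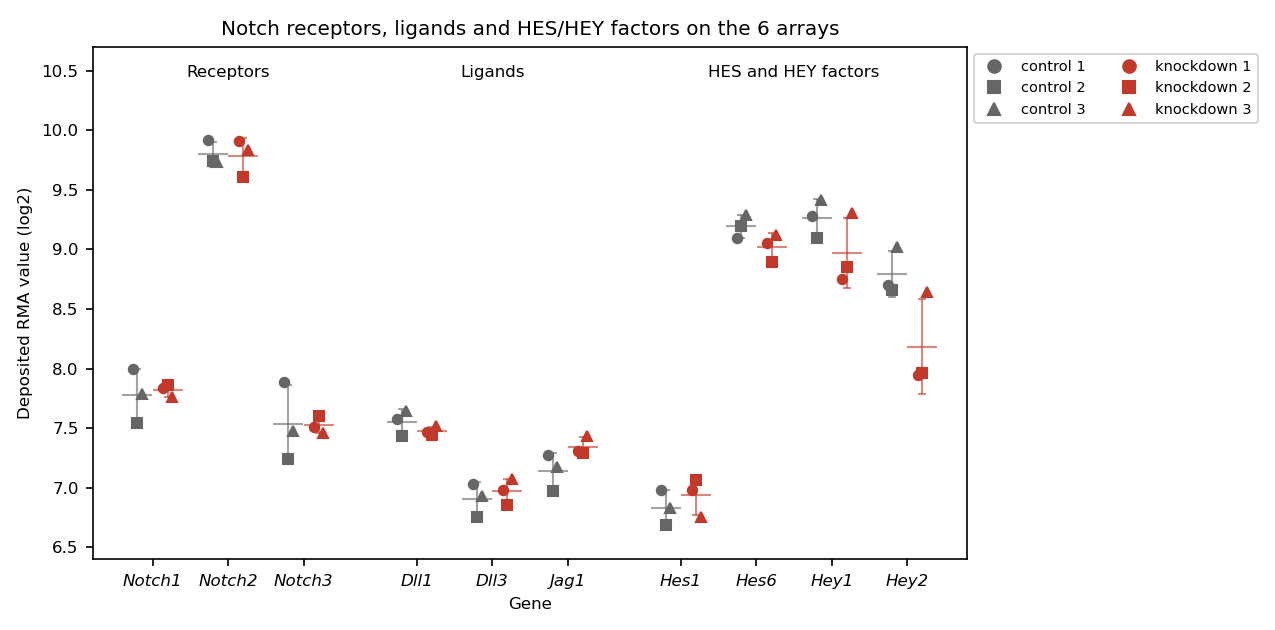
Deposited log2 value (y axis) of the 10 genes (x axis, grouped by role) on each array. Grey points are control and red points knockdown arrays, the marker gives the replicate, and bars give mean and SD (n = 3). Levels of different genes come from different probes and are not comparable. Groups are separate for *Hey2* and *Jag1*, and knockdown array 3 of *Hey2* and *Hey1* stands at 8.64 and 9.31, above the other 2 knockdown arrays.

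None of the receptors passed. *Notch1* was 7.995, 7.55 and 7.78 in the controls and 7.84, 7.86 and 7.76 in the knockdown, so that every knockdown value lay inside the control range. *Notch2* was 9.92, 9.74 and 9.73 in the controls and 9.91, 9.60 and 9.83 in the knockdown, and its groups overlapped too. For *Notch3* the controls were the more spread group, at 7.89, 7.24 and 7.47, and the knockdown arrays, at 7.51, 7.60 and 7.46, fell between their extremes.

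The receptor differences were 0.04 for *Notch1* (95% interval from -0.21 to 0.30), -0.02 for *Notch2* (from -0.29 to 0.25) and -0.01 for *Notch3* (from -0.34 to 0.32) on the log2 scale. These intervals leave room for moderate changes either way. On all 3 receptors control array 1 was the highest control, and it lay above the knockdown mean of each.

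The ligands did not pass either. *Jag1*, a Jagged-type ligand, was 7.27, 6.97 and 7.17 in the controls and 7.30, 7.29 and 7.44 in the knockdown. All knockdown values were above all controls, although the gap between the groups was small, and the log2 difference was 0.21 (95% interval from -0.01 to 0.43, limma adjusted p = 0.303). Groups were separate for 2 of the 10 genes, *Jag1* and *Hey2*, and for 23.5% of all 19938 genes (31.1% of those past the filter). *Dll1*, a Delta-type ligand that activates Notch on neighbouring cells, was 7.58, 7.43 and 7.64 against 7.47, 7.44 and 7.52, with a difference of -0.08 (from -0.27 to 0.11). *Dll3*, a Delta-type protein known to restrain Notch within the same cell, was 7.03, 6.75 and 6.93 against 6.98, 6.86 and 7.07, with a difference of 0.07 (from -0.16 to 0.29). The groups of both Delta genes overlapped.

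Of the 10 genes, 1 fell, none rose, 3 passed the filter on variation but not the test (*Notch2*, *Hes1* and *Hey1*), and 6 did not pass the filter and were read from the fit to all genes. Their log2 differences ran from -0.61 to 0.21 with a median of -0.01, where the median over all 19938 genes was 0.03 and the middle of that distribution lay between -0.08 and 0.12 (quartiles). *Hey2* was the only one of the 10 to differ by more than a factor of 1.5, which 1.75% of all genes did. The HES and HEY group had a median of -0.23, the receptors -0.01 and the ligands 0.07. By level, 1 of 3 receptors, 0 of 3 ligands and 3 of 4 HES and HEY factors (all but *Hes1*) lay above the median of all genes. That is a rough guide, since levels of different probes are not on a common scale. Whether the genes below it were expressed was not tested, so their small differences need not mean unchanged expression.

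The other genes of the pathway were taken from 7 lists, and 55 of them are described. Of these 55 genes, 2 fell, none rose, 18 passed the filter but not the test and 35 did not pass the filter. The 2 called are thus 2 of 20 genes tested, where 7.54% of all genes past the filter were called and 5.16% fell, a share too near to read anything particular to the pathway from so few genes. The median log2 difference was -0.00013, with 28 genes below 0 and 27 above. Both falls were in the receptor cleavage list.

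*Psen2*, which encodes a presenilin, the catalytic subunit of gamma-secretase, was 8.23, 8.25 and 8.33 in the controls and 7.93, 7.80 and 7.79 in the knockdown. The groups were well separated and tight. Its log2 difference was -0.43 (SE 0.12, 95% interval from -0.68 to -0.18, limma adjusted p = 0.0380), a 1.35-fold lower level. *Aph1b*, a scaffold subunit of the same complex, was 9.68, 9.18 and 9.50 in the controls and 8.42, 8.48 and 9.27 in the knockdown. Knockdown array 3 lay above the lowest control, as it lay close to the controls for *Hey2*. The log2 difference was -0.73 (SE 0.20, 95% interval from -1.15 to -0.31, limma adjusted p = 0.0380), a 1.66-fold lower level. *Psen2* and *Aph1b* were each called in 8 of the 15 alternatives. Both calls were lost when any of the same 4 arrays as for *Hey2* was left out, and *Psen2* was also lost when control array 2 was.

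Further gamma-secretase subunits are named here after their values were seen. *Aph1c*, a mouse gene very similar to *Aph1b* whose probes may share signal with it, was 8.54, 8.19 and 8.31 in the controls and 8.12, 7.98 and 8.09 in the knockdown, a log2 difference of -0.28 (limma adjusted p = 0.178). *Ncstn*, the nicastrin subunit, was 11.35, 11.21 and 11.27 against 10.92, 10.89 and 11.18, a difference of -0.28 (limma adjusted p = 0.164). *Aph1a* and *Psenen*, the alternative scaffold and the smallest subunit, had differences of 0.08 and 0.09. Groups were separate for 5 of these 6 subunits, 3 with lower values in the knockdown (*Psen2*, *Ncstn* and *Aph1c*) and 2 with higher values (*Aph1a* and *Psenen*). Groups were separate for 23.5% of all genes and 31.1% of those past the filter, and these subunits were grouped with their values known. Of the proteases that make the first cut, also named after their values were seen, *Adam10* had a difference of 0.34 with separate groups (limma adjusted p = 0.100) and *Adam17*, the middle gene of the 55, one of -0.00013.

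**Figure D3:**
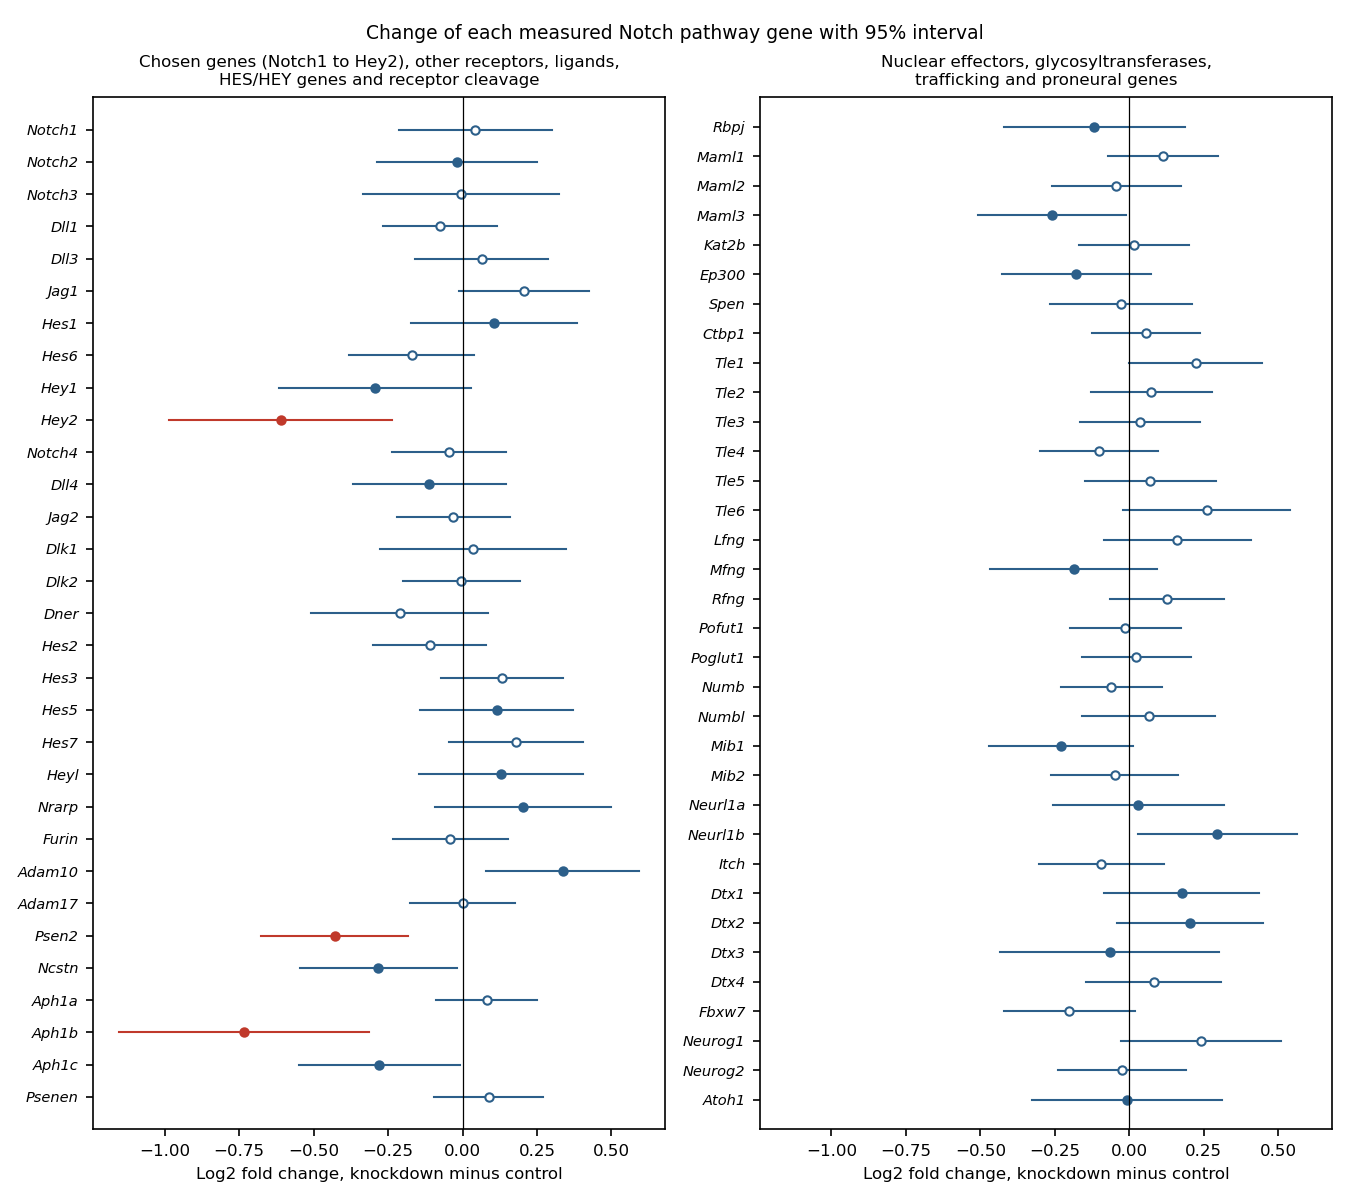
Log2 fold change (x axis, knockdown minus control) of each measured gene of the pathway (y axis), with the 95% interval from limma. Red marks genes with an adjusted p under 0.05, filled points genes that passed the filter on variation and open points those read from the fit to all genes. The 3 red genes, *Hey2*, *Psen2* and *Aph1b*, all lie below 0.

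No gene of the other 6 lists passed. Among 6 further receptors, ligands and ligand-like proteins the largest differences were those of *Dner*, a neuronal ligand-like protein (-0.21, from -0.51 to 0.09), and *Dll4*, a Delta-type ligand best known in vessels (-0.11, from -0.37 to 0.14). Among 6 further HES and HEY genes and feedback targets, 5 lay above 0. The largest of them were *Nrarp*, a Notch target that limits the pathway (0.20, from -0.09 to 0.50), and *Hes7* (0.18, from -0.04 to 0.40). Of 14 nuclear effectors and corepressors, the groucho family gene *Tle6* (0.26, from -0.02 to 0.54) and the coactivator *Maml3* (-0.26, from -0.51 to -0.01) differed most. *Maml3* had separate groups but an adjusted p = 0.174 (limma).

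The genes that modify or move the receptors and ligands went either way by small amounts. Among 5 glycosyltransferases the largest differences were those of *Mfng* (-0.19) and *Lfng* (0.16), both Fringe enzymes that tune which ligand a receptor answers. Among 12 trafficking genes and ubiquitin ligases they were those of *Neurl1b* (0.29, limma adjusted p = 0.153) and *Mib1* (-0.23, limma adjusted p = 0.209), both ligases that act on Notch ligands. Of 3 measured proneural genes that HES factors are known to repress, *Neurog1* was 6.76, 6.32 and 6.74 in the controls and 6.85, 6.89 and 6.80 in the knockdown. That is a difference of 0.24 with separate groups, which did not pass (limma adjusted p = 0.332). *Neurog2* had a difference of -0.02. Of these 3 genes, 0 lay above the median of all genes.

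Other features of the arrays moved with the groups. Of 11 measured proliferation markers, 6 rose, where 2.39% of all genes past the filter rose. Groups were separate for all 11, against 31.1% of the genes past the filter. The mean log2 value of the 11 stood 0.57, 0.58 and 0.40 above the control mean on knockdown arrays 1 to 3, with control array 1 at -0.30. Markers of sympathetic neurons and neuroblastoma were present, with 11 of 11 measured genes above the median of all genes. 3 of them fell (*Th*, *Dbh* and *Chgb*), where 5.16% of all genes past the filter fell. The mean of the list stood at -0.34, -0.34 and -0.19 on the knockdown arrays. The mean of the HES and HEY factors stood at -0.34, -0.33 and -0.06 on the same arrays. In each of these 3 cases knockdown array 3 was the one nearest to the controls. The part of these shifts in the *Hey2* result was not tested.

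*Hey2* and *Hey1* are also known from vessels. Of 8 endothelial, 6 mural, 5 fibroblast and 5 glial markers, none passed the test, and 2, 2, 2 and 0 lay above the median of all genes, a rough guide since levels of different probes are not on a common scale. The endothelial list stood at -0.03, -0.01 and 0.03 on the knockdown arrays and the mural list at -0.21, -0.07 and -0.05, where the controls ran from -0.10 to 0.12 and from -0.16 to 0.13. Of the 8 endothelial markers 3 lay below 0 and 5 above. The furthest below was *Vwf* (-0.33, limma adjusted p = 0.0957, groups separate) and the furthest above *Kdr* (0.21, from -0.05 to 0.46, groups separate). Of the 6 mural markers 3 lay below 0 and 3 above, with a median log2 difference of 0.01. The largest differences among them were those of *Pdgfrb* (-0.75, limma adjusted p = 0.0807, groups overlapping) and *Myh11* (0.19, from -0.07 to 0.45, groups separate). All arrays came from the N2A line, so these lists were read as sets of genes, not as counts of such cells. The part of these genes in the *Hey2* result was not tested.

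**Figure D4:**
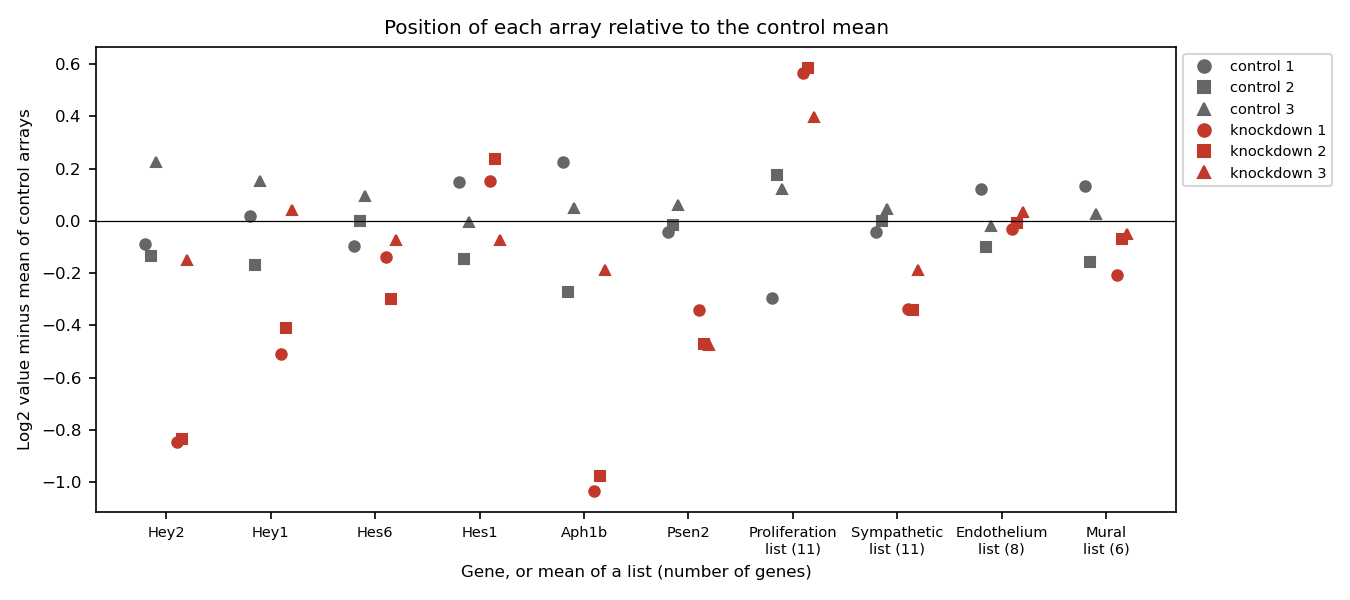
Difference from the average of the 3 controls on the log2 scale (y axis) for 6 genes and for the mean of 4 marker lists (x axis), with 1 point per array (grey control, red knockdown, marker by replicate). Knockdown array 3 stands at -0.15 for *Hey2* and -0.19 for *Aph1b*, where the other 2 knockdown arrays lie at -0.85 and -0.84 for *Hey2* and at -1.03 and -0.98 for *Aph1b*, whereas for *Psen2* it stands at -0.48, the lowest array.

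The genes whose course over the 6 arrays was most like that of *Hey2*, by the root mean square difference of the centred log2 profiles among the 9969 genes past the filter, were *Scd1* (0.078), *Slc18a1* (0.085) and *Ropn1l* (0.093). *Scd1* encodes a fatty acid desaturase and *Slc18a1* a vesicular monoamine transporter. The knockdown values of *Slc18a1* were 7.22, 7.05 and 7.65 against 7.93, 7.82 and 8.16 in the controls, with knockdown array 3 again the highest of its group. This is a description of profiles over few arrays and all 3 genes were found by their likeness.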

How the data were processed

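The authors corrected the background of the arrays, quantile normalised them and summarised probes by RMA. The deposited values are log2 expression values per transcript cluster (35556 rows). For the arrays, tool versions and a genome build were not given in the sources used here. Quantile normalisation gives all arrays the same distribution, so that a shift of all genes together would not be seen, and array medians over all rows lay between 7.40 and 7.47. The number of arrays limits the precision.

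Rows were named through the platform annotation. 21789 rows had 1 gene symbol and were kept, and a gene with several rows was read from its brightest row. As in the study's methods, genes of little variation were removed: the lower 50% by interquartile range over the 6 arrays (the measure was chosen here). The groups were compared with limma 3.58.1 in R 4.3.3 (lmFit, eBayes) over the 9969 genes left. P-values were adjusted by Benjamini-Hochberg, and 0.05 was the threshold. Genes below the filter took their values from the same fit to all 19938 genes. Intervals are limma's 95% intervals. The fit was tested on simulated data with independent values and an added log2 change of 1. A change as small as that of *Hey2* was not simulated, so the test does not bear on its call. Promoter windows came from RefSeq (GRCm38.p6).

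The 10 genes and the lists were chosen with earlier results of these data known, and no p-value was adjusted over a list. Genes named were all 10, list genes that passed, otherwise the 2 of a list with the largest difference, for *Hey2* the 3 most similar profiles, and up to 3 genes of a marker list. Exceptions are marked. Some genes of the lists are not reported here. Same-numbered arrays did not deviate together, so arrays were not paired.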

Additional observations from a re-analysis of the deposited data

How the results depend on the processing

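Over 15 alternatives for each of the 10 genes, 130 values kept their direction and their side of the threshold, 10 changed direction, 8 no longer passed and 2 newly passed. *Hey2* kept its direction in all 15 and passed in 7, with adjusted p from 1.06e-05 to 0.376. It missed with no filter, with a filter on dim genes (adjusted p = 0.0885), with each array centred (adjusted p = 0.0620), with all rows kept (adjusted p = 0.243) and without 4 of the arrays taken singly. *Hey1* passed with arrays weighted (-0.53, adjusted p = 0.000571) and without knockdown replicate 3. Of the 10 genes, none passed with no filter, with the filter on dim genes, with all rows kept or with arrays centred, and 2 passed with arrays weighted. Of the other pathway genes, 1 passed with no filter and with the filter on dim genes, 0 with all rows kept and 11 with arrays weighted. Of all genes tested, 3.07% passed with no filter and 5.42% with the filter on dim genes. The share was 6.63% with arrays centred and 55.8% with arrays weighted. With all rows of the table entered (all rows kept), the same filter on variation left 17778 rows. Of these limma called 0, none up and 0 down (3015 had an unadjusted p under 0.05). With arrays weighted it called 5561 genes, of which 2665 fell and 2896 rose, against 752 without weights. The cause of these moves was not tested. With 1 array left out, genes called ranged from 112 to 1239 (falls from 87 to 905, rises from 25 to 334), or from 1.12% to 12.4%. Both the count among the 10 genes and that among the other pathway genes ranged from 0 to 2. With the replicate number as a block (replicate block), 6.82% of all genes tested passed. In that setting 1 of the other pathway genes passed (*Aph1b*, while *Psen2* did not). *Hey2* still passed, and no other call among the 10 genes changed. Deviations of same-numbered arrays correlated at -0.29, 0.06 and 0.08. Values near 0 changed sign: *Notch3* was 0.0085 with arrays centred and 0.076 with arrays weighted, and *Notch2* was 0.017 with arrays weighted. With 1 array left out *Notch1* ranged from -0.071 to 0.15, *Notch2* from -0.081 to 0.071, *Notch3* from -0.15 to 0.17 and *Dll3* from -0.011 to 0.13. These differences are smaller than the spread between replicates, and their direction is not settled.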
